A study of Mus musculus with 23 samples.

Results

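Growth hormone signalling in the liver was followed through 9 genes: the receptors Ghr and Prlr, the transcription factors Stat5a and Stat5b, the feedback inhibitors Socs2 and Cish, the repressor Bcl6, and the secreted products Igf1 and Igfals. They were taken by gene name from the deposited tables of both sexes, which list 22852 genes in common, and all 9 were present in each table and passed the filter on low counts in every comparison. Bulk RNA was sequenced from 23 mouse liver samples, here called livers, namely 5 labelled as B100 control males, 6 as B100-LKO males, 6 as B100 control females and 6 as B100-LKO females. By the series title, LKO animals lack Cpt1a in the liver. All groups, controls included, had the B100 background, received a diet labelled only WD for 16 weeks and were fed at necropsy. The labels give neither the animals' age nor what drives the deletion. Control males carried the numbers 1, 2, 3, 4 and 6. The labels number the samples without stating that each is a separate animal, so the p-values measure the spread between these samples.

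Growth hormone from the pituitary binds the receptor encoded by Ghr, which activates the kinase JAK2, and JAK2 phosphorylates STAT5A and STAT5B. The phosphorylated factors enter the nucleus and raise transcription of Igf1 and Igfals, whose products circulate as a complex, and of Socs2 and Cish, whose products damp the receptor, while Bcl6 is repressed. In rodents males secrete the hormone in separated pulses and females in a more continuous pattern, which gives many liver genes a sex-biased level. STAT5B is the main form in hepatocytes. Prlr encodes the prolactin receptor, which also signals through STAT5 and is more abundant in female than in male mouse liver.

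STAT5 dimers bind the palindrome TTCNNNGAA, which was searched on both strands in windows of 300 bases around annotated gene starts (RefSeq, GRCm38.p6, a different build from that of the counts). Of 32851 such windows, 8.30% held at least 1 copy, 0.457% at least 2 and 0.0335% at least 3. Windows were available for 8 of the 9 genes, with Socs2 the exception, and 6 of their 16 windows held a copy, in 4 genes: Cish, Bcl6, Igfals and Prlr. The Cish window, at chr9:107296409-107296708 on the plus strand, held 2 copies, at bases 251 to 259 and 262 to 270. The first Bcl6 window, at chr16:23981234-23981533 on the minus strand, held 3 copies, at bases 83 to 91, 129 to 137 and 163 to 171. These windows are shown because they held the most copies among the 9 genes, and because Cish and Bcl6 varied in opposite directions among the livers below. Each is printed 5′ to 3′ with the copies in capitals. A match of letters is not evidence of binding.
Cish: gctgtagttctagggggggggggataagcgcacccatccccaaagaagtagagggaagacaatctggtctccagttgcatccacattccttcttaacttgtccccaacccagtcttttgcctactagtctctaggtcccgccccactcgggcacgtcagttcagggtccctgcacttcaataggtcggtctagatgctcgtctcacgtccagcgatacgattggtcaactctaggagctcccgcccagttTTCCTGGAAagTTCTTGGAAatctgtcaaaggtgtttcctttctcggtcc
Bcl6: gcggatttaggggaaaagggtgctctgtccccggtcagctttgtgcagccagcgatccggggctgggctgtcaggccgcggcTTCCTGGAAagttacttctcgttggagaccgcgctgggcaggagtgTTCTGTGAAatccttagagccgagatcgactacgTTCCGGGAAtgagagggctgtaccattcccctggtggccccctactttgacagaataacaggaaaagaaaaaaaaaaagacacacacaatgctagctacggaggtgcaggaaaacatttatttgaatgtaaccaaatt

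Total counts per liver ran from 14224665 to 18361717 in control males, 15370271 to 16689307 in LKO males, 15174756 to 17129450 in control females and 15434065 to 19626662 in LKO females. Cpt1a had 3745 to 7366 counts in control males and 661 to 1426 in LKO males, and 4295 to 7440 in control females and 994 to 1670 in LKO females. Its LKO level was 17.6% of the control mean in males and 19.6% in females, with no overlap between genotypes in either sex. The hepatocyte marker Alb was at 14390 to 28680 FPKM (fragments scaled to gene length and library size), so the tissue carried its defining transcript. Control male 4 stood apart: its total was the lowest of all, it had the fewest detected genes, 18232, and it was the highest of the 5 control males in 25.2% and the lowest in 28.01% of the 13805 genes tested in males. Each of the other control males was highest in 16.5% to 20.7% and lowest in 16.2% to 20.1%.

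The 9 genes did not pass the test for a difference between LKO and control livers in either sex. In males 0 of 9 were called by the edgeR quasi-likelihood test at an adjusted p under 0.05, where 0.00724% of all tested genes were called, and 0 of 9 had an unadjusted p under 0.05, against 12.45% of all genes. DESeq2 also called 0 of the 9 in males, where it called 1.45% of the 7374 genes to which it gave an adjusted p. In females 0 of 9 were called by edgeR, where 1.42% of all genes were called, and 0 of 9 by DESeq2, which called 3.64% of 15235 genes. In females 3 of the 9, Ghr, Stat5a and Prlr, had an unadjusted p under 0.05, against 15.64% of all genes. No gene of the 9 had LKO values all above or all below the control values, a separation seen in 1.77% of genes in males and 1.59% in females. The median log2 fold change of the 9 genes was -0.07 in males and -0.01 in females, beside 0.01 and 0.0051 for all genes.

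**Figure D1:**
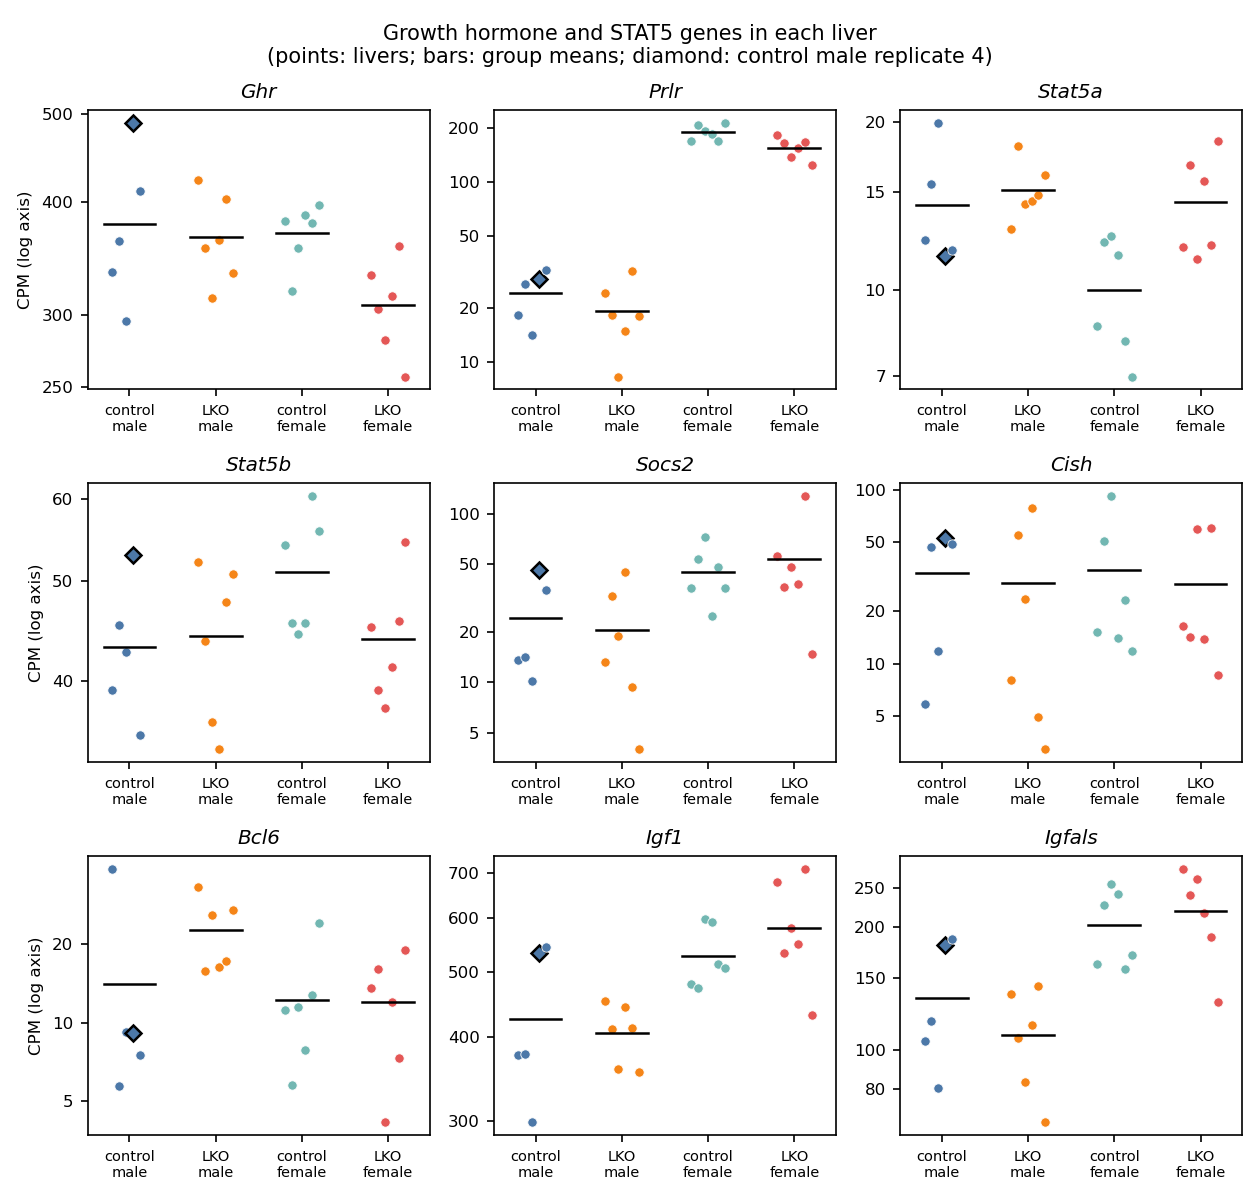
CPM (log axes, 1 panel per gene) of the 9 genes in each liver, grouped by sex and genotype. Points are livers, bars are group means and the diamond is control male 4. LKO and control points overlap within each sex in every panel, Prlr separates the sexes, and Cish spreads over more than 20-fold in LKO males.

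Ghr encodes the growth hormone receptor (ENSMUSG00000055737, chromosome 15, 3347242 to 3612974, minus strand, in the tables' coordinates). Counts in control males 1, 2, 3, 4 and 6 were 5334, 6087, 4901, 6041 and 7026. LKO males ran from 5352 to 6445 with a median of 5912.5. The genotypes overlapped, and in CPM (counts scaled to library size with TMM factors) control male 4 was the highest control. The log2 fold change in males was -0.05 (SE 0.128, edgeR adjusted p 0.915), and it was 0.06 without control male 4. In control females Ghr ran from 5263 to 6285 counts, median 5923, and in LKO females from 4526 to 6492, median 5201.5. The LKO mean was 308 ± 36.0 CPM against 370 ± 28.3 CPM in controls (SD, n = 6 each). The log2 fold change in females was -0.26 (95% interval -0.46 to -0.07, unadjusted p 0.00972), which missed the threshold after adjustment (edgeR adjusted p 0.157). The adjusted p in the authors' deposited table is 0.064. In bulk liver, less RNA per hepatocyte and fewer hepatocytes cannot be told apart, and all 6 hepatocyte markers (Alb, Ttr, Apoa2, Fah, Cps1, Tat) had lower values in LKO than in control females, with a median log2 fold change of -0.25 and 0 called. Their summed level was 51081 to 81054 CPM in LKO and 75589 to 88816 CPM in control females, none was at 0 in any liver, and their part in the Ghr value was not tested.

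Prlr (ENSMUSG00000005268, chromosome 15, 10177324 to 10349266, plus strand) had 289, 455, 234, 358 and 550 counts in control males 1, 2, 3, 4 and 6. LKO males had 141 to 510 counts, median 309. In control females it had 2538 to 3613 counts, median 2903, and in LKO females 2203 to 3184, median 2823. Every female liver was thus above every male liver, while LKO and control livers of a sex overlapped. The LKO log2 fold change was -0.33 in males (SE 0.291, edgeR adjusted p 0.693) and -0.29 in females (SE 0.0983, unadjusted p 0.0101, edgeR adjusted p 0.160). The male value was -0.16 without LKO male 3, -0.20 without control male 6 and -0.53 without LKO male 5. The authors' deposited table gives an adjusted p of 0.082 for females. The genotype effects of the sexes differed by 0.04 (95% interval -0.61 to 0.68, edgeR adjusted p 0.974).

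Stat5a and Stat5b, neighbouring genes on chromosome 11 that arose by duplication, encode near-identical proteins, so reads shared between them are uncertain. Stat5a (ENSMUSG00000004043, 100750177 to 100775995, plus strand) also overlaps Stat3 on the other strand. It had 196, 260, 330, 142 and 201 counts in control males 1, 2, 3, 4 and 6 and 189 to 304, median 240, in LKO males. The log2 fold change in males was 0.09 (SE 0.147, edgeR adjusted p 0.869), and it was 0.02 to 0.04 without LKO male 2 or control male 1, 4 or 6 and 0.25 without control male 3. In females Stat5a ran from 108 to 213 counts, median 163, in controls and from 183 to 365, median 248.5, in LKO livers. Control females averaged 9.99 ± 2.37 CPM and LKO females 14.4 ± 2.99 CPM (SD, n = 6 each), and the log2 fold change was 0.53 (95% interval 0.17 to 0.88, unadjusted p 0.00645, edgeR adjusted p 0.132). The LKO and control females overlapped. The adjusted p in the authors' deposited table is 0.070. Stat5a had the lowest interaction p of the 9 genes: the LKO effect in females minus that in males was 0.44 (SE 0.233, unadjusted p 0.0724, edgeR adjusted p 0.436).

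Markers of other liver cells also had higher values in LKO females. All 6 stellate cell and fibroblast markers (Col1a1, Col3a1, Dcn, Acta2, Des, Lrat) were higher, with a median log2 fold change of 0.555 and 0 called, and their summed level was 179 to 350 CPM in LKO against 181 to 232 CPM in control females. All 6 cholangiocyte markers were higher, with a median of 0.28 and Spp1 called (log2 fold change 0.66, edgeR adjusted p 0.0135). Summed cholangiocyte markers ran from 64.7 to 102 CPM in LKO and from 55.1 to 64.9 CPM in control females. All 4 lymphocyte markers tested were higher, with a median of 0.49 and 0 called, at 15.1 to 49.6 CPM against 11.6 to 20.7 CPM summed. The highest of these sums was that of LKO female 5, and the other LKO females had 15.1 to 21.6 CPM. The macrophage and Kupffer cell markers were higher in 2 of 6 and the endothelial markers in 1 of 6. No marker of these 5 lists was at 0 in any female liver, and their part in the Stat5a value was not tested.

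Stat5b (ENSMUSG00000020919, 100671557 to 100741550, minus strand) was the more abundant of the pair per length, at 7.66 to 9.22 FPKM as group means, against 1.40 to 2.07 FPKM for Stat5a. Its counts were 625, 763, 707, 654 and 607 in control males 1, 2, 3, 4 and 6, and 538 to 888, median 749.5, in LKO males. In females they were 657 to 910, median 829.5, in controls and 607 to 1076, median 758, in LKO livers. The groups overlapped in both sexes. The log2 fold change was 0.04 in males (SE 0.129, edgeR adjusted p 0.943) and -0.21 in females (SE 0.104, edgeR adjusted p 0.338). The male value was -0.02 without LKO male 1 and -0.03 without control male 6.

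Socs2 encodes an inhibitor that is induced by growth hormone and limits the receptor (ENSMUSG00000020027, chromosome 10, 95221224 to 95253042, minus strand). Control males 1, 2, 3, 4 and 6 had 217, 237, 168, 573 and 604 counts, so numbers 4 and 6 lay above the others. LKO males ran from 70 to 703, median 257.5. Control females ran from 395 to 1077, median 662, and LKO females from 292 to 2246, median 778. The highest of these, LKO female 5, reached 127 CPM where the other LKO females had 14.8 to 55.8 CPM. The LKO log2 fold change was -0.22 in males (95% interval -1.38 to 0.95, edgeR adjusted p 0.913) and 0.24 in females (-0.58 to 1.05, adjusted p 0.826). The sign is not settled in either sex: it was 0.16 in males without control male 4, 0.0050 without LKO male 6, and -0.23 in females without LKO female 5.

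Cish encodes another growth hormone-induced inhibitor of the same family (ENSMUSG00000032578, chromosome 9, 107173225 to 107179983, plus strand) and overlaps Gm17040 on the other strand. Its counts in control males 1, 2, 3, 4 and 6 were 93, 785, 196, 653 and 837. In LKO males they were 118, 924, 402, 1237, 79 and 56 for replicates 1 to 6. In control females they were 249, 885, 1365, 223, 351 and 183, and in LKO females 257, 242, 960, 285, 1057 and 169. Each group thus held 2 or 3 livers with 653 counts or more beside livers with 257 or fewer. The highest CPM was 9.06 times the lowest in control males, 24.7 times in LKO males, 7.80 times in control females and 7.01 times in LKO females. The coefficient of variation was 67.7%, 108%, 92.0% and 84.1% in that order, above that of 97.2%, 99.8%, 99.6% and 99.4% of all tested genes, whose median coefficients were 15.1% to 17.4%. Against this spread the LKO log2 fold change was -0.20 in males (95% interval -1.85 to 1.46, edgeR adjusted p 0.947) and -0.27 in females (-1.50 to 0.97, adjusted p 0.878). In males an interval of this width does not exclude differences of more than 2-fold in either direction. The sign turned in males without LKO male 5 (0.03), LKO male 6 (0.05) or control male 4 (0.03), and in females without control female 3 (0.32).

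Bcl6 encodes a transcriptional repressor that growth hormone lowers through STAT5 (ENSMUSG00000022508, chromosome 16, 23783802 to 23807602, minus strand). It overlaps ENSMUSG00000120947, a long non-coding RNA gene on the same strand with 0 to 11 counts in male and 0 to 6 in female livers, and how shared reads were counted is uncertain. Control male 1 had 615 counts, and control males 2, 3, 4 and 6 had 96, 152, 113 and 129. LKO males had 484, 265, 439, 256, 275 and 470 counts for replicates 1 to 6. All 6 LKO males were therefore above 4 of the 5 control males and below the remaining one. Control males averaged 14.03 ± 13.8 CPM (SD, n = 5) and LKO males 22.5 ± 7.05 CPM (SD, n = 6), and the log2 fold change was 0.68 (95% interval -0.26 to 1.61, edgeR adjusted p 0.552). Without control male 1 the log2 fold change was 1.51 (edgeR adjusted p 0.0956), which still missed the threshold. All 6 macrophage and Kupffer cell markers had higher values in LKO than in control males (median log2 fold change 0.31, 0 called, 474 to 730 against 297 to 592 CPM summed, none at 0). Lymphocyte markers were higher in 4 of 5 tested (median 0.49), endothelial markers in 5 of 6 and stellate cell markers in 4 of 6. Cholangiocyte and hepatocyte markers were higher in 2 of 6 each, and 0 markers of these lists were called. The part of these cell types in the Bcl6 value was not tested. In females Bcl6 ran from 101 to 371 counts, median 177, in controls and from 67 to 375, median 230.5, in LKO livers. Their log2 fold change was -0.01 (SE 0.348, edgeR adjusted p 0.993), and its sign turned without LKO female 3 or 5 or control female 5 or 6. The interaction was -0.69 (95% interval -1.92 to 0.54, edgeR adjusted p 0.656), and it was -1.53 without control male 1 and -0.39 without control female 6.

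Igf1 encodes insulin-like growth factor 1, of which the liver is the main circulating source (ENSMUSG00000020053, chromosome 10, 87694127 to 87772904, plus strand), and overlaps Igf1os on the other strand. It had 6002, 6350, 4951, 6596 and 9290 counts in control males 1, 2, 3, 4 and 6 and 6113 to 6941, median 6628.5, in LKO males. Control females had 7743 to 9457, median 8089, and LKO females 8517 to 12543, median 10011.5. LKO and control livers overlapped in CPM in both sexes. The log2 fold change was -0.07 in males (95% interval -0.39 to 0.25, edgeR adjusted p 0.892) and 0.14 in females (-0.11 to 0.39, adjusted p 0.620), so the intervals reach no further than about 1.3-fold. The male value was 0.02 without control male 4 and 0.03 without control male 6, and the female value was 0.07 without LKO female 5 and 0.21 without LKO female 6. Igfals encodes the acid-labile subunit that holds IGF1 in the circulating complex (ENSMUSG00000046070, chromosome 17, 25084971 to 25100984, plus strand). Its counts in control males 1, 2, 3, 4 and 6 were 1678, 1980, 1336, 2239 and 3206, and LKO males had 1161 to 2295, median 1801. Control females had 2383 to 3969, median 3234.5, and LKO females 2590 to 4479, median 4165.5. Again the genotypes overlapped. Its log2 fold change was -0.31 in males (SE 0.239, edgeR adjusted p 0.643) and 0.12 in females (SE 0.174, adjusted p 0.808). The male value was -0.16 without control male 6, -0.18 without control male 4 and -0.19 without LKO male 6, and leaving out 1 female moved the female value between 0.04 (without LKO female 1) and 0.23 (without LKO female 6).

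**Figure D2:**
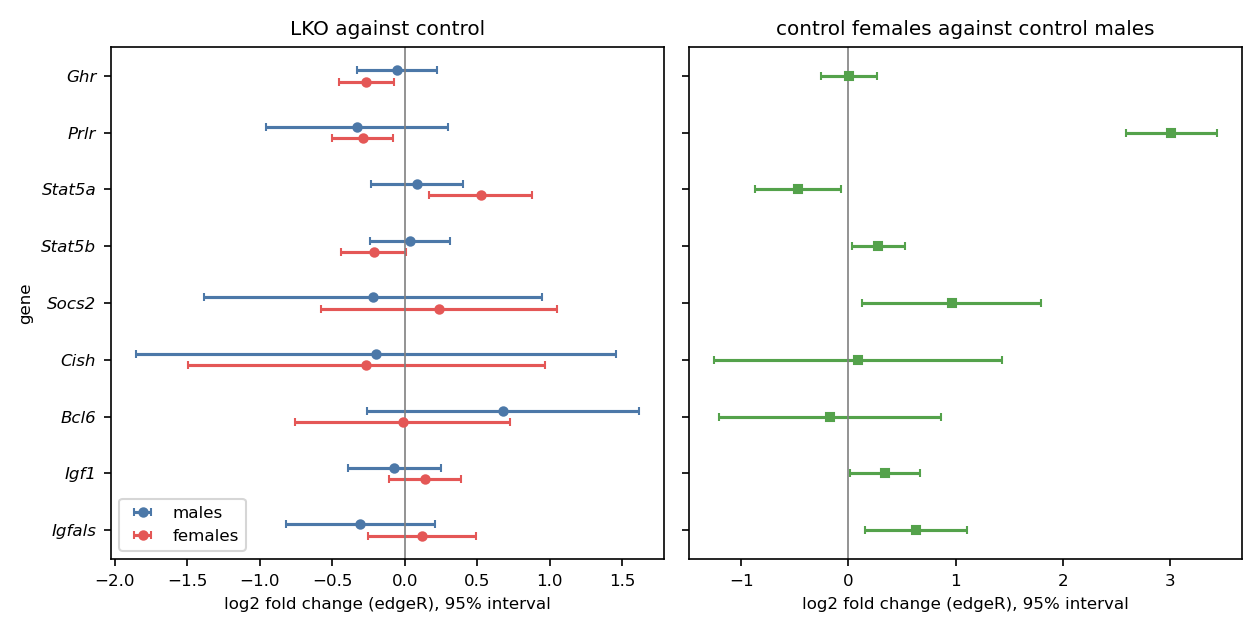
edgeR log2 fold changes of the 9 genes with 95% intervals, for LKO against control in males and in females (left) and for control females against control males (right). In the left panel the widest intervals are those of Cish and Socs2, and in the right panel Prlr lies at 3.01 while Ghr lies at 0.

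Per unit of gene length, Igfals, Igf1 and Ghr were the most abundant of the 9 transcripts, at group means of 33.7 to 69.3, 40.1 to 58.6 and 33.9 to 41.2 FPKM. Their ranges overlap, so no order among them is drawn. Prlr stood at 10.1 and 12.4 FPKM in LKO and control females and at 1.23 and 1.55 FPKM in LKO and control males. Cish lay at 4.42 to 5.39, Socs2 at 2.11 to 5.59 and Bcl6 at 1.79 to 3.28 FPKM.

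Control females were compared with control males to place the genotype effects beside the sex difference of the pathway. Each sex was deposited as its own table, and an effect of table on preparation or counting cannot be told apart from sex. CPM means were scaled within each table, LKO livers included, while the fold changes and the overlap of groups come from the controls scaled together. Prlr was the only one of the 9 genes called, where 18% of all tested genes were called, and the only one whose groups did not overlap, against 10.3% of all genes. Prlr was 189 ± 18.5 CPM in control females (SD, n = 6) and 24.1 ± 7.63 CPM in control males (SD, n = 5), higher by 3.01 on the log2 scale (SE 0.197, edgeR adjusted p 9.44e-07), and higher in 6 of 6 females than in any male. Ghr did not differ detectably, at 370 ± 28.3 CPM in females and 378 ± 74.6 CPM in males (log2 fold change 0.00, 95% interval -0.26 to 0.26, edgeR adjusted p 0.997), and the sign of so small a value turned under other scalings and without control male 1, 2 or 3 or control female 1, 4, 5 or 6.

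The other genes of the 9 missed the threshold in this comparison, and 3 of them were called when control male 4 was left out. Igfals was 203 ± 43.6 CPM in control females (SD, n = 6) and 134 ± 47.5 CPM in control males (SD, n = 5), a log2 fold change of 0.63 (edgeR adjusted p 0.0635). Its edgeR adjusted p was 0.0281 without control male 4, 0.0387 without control male 6 and 0.0418 with library size alone in place of TMM, and DESeq2 gave 0.0346. Socs2 was 45.3 ± 16.9 against 23.9 ± 16.0 CPM, a log2 fold change of 0.96 (edgeR adjusted p 0.0999), which became 1.34 (adjusted p 0.018) without control male 4. Stat5b was 51.0 ± 6.70 against 43.1 ± 6.60 CPM, a log2 fold change of 0.28 (adjusted p 0.111), which became 0.36 (adjusted p 0.0312) without the same liver. Without control male 4, then, 4 of the 9 were called, Prlr, Igfals, Socs2 and Stat5b, where 21.2% of all genes were called. Igf1 had a log2 fold change of 0.34 (edgeR adjusted p 0.131, or 0.0508 without control male 4) and Stat5a one of -0.47 (adjusted p 0.0953). Cish (0.09, 95% interval -1.25 to 1.43) and Bcl6 (-0.17, 95% interval -1.20 to 0.86) were not resolved between the sexes at this spread, with edgeR adjusted p of 0.940 and 0.841. Their sign turned without single livers, to -0.49 for Cish without control female 3 (also without control male 1 or 3 or control female 2) and to 0.66 for Bcl6 without control male 1.

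Within groups, several pairs of the 9 genes were correlated from liver to liver. Each liver's log2 CPM was expressed as its deviation from the mean of its own group, which removes sex and genotype, and all 36 pairs of the 9 genes were correlated over the 23 livers, with p-values from 100000 permutations of livers within groups. After Benjamini-Hochberg adjustment over the 36 pairs, 10 pairs had an adjusted p under 0.05 for Pearson's r. An r above 0.5 in size was seen in 11 of the 36 pairs (30.6%), beside 8.4% of all pairs among the 9524 genes with a mean of at least 5 CPM, and the median size of r was 0.356 beside 0.207. All values of a liver share its library and scaling, so a shared technical shift is not separated here. Control male 3 and LKO female 6 had the lowest summed hepatocyte markers of their groups, 51639 and 51081 CPM. They also had the lowest Ghr, Igf1 and Igfals CPM of their groups. The lowest livers of the other groups did not follow. Control female 4, at 75589 CPM, had Ghr, Igf1 and Igfals at 387, 592 and 242 CPM, above group means of 370, 527 and 203 CPM. LKO male 2, at 49676 CPM, had 356, 412 and 107 CPM, beside group means of 365, 405 and 109 CPM. Control female 1 had the highest sum of its group, 88816 CPM, but Igf1 at 480 CPM beside a group mean of 527 CPM. The part of hepatocyte content in the correlations was not tested. The highest correlation was between the feedback inhibitors Socs2 and Cish, with r = 0.85 (permutation p 3e-05, adjusted 0.00108) and Spearman's rho = 0.87 (permutation p 2e-05, adjusted 0.00072). It was 0.88 in the 11 males and 0.79 in the 12 females, 0.85 without control male 4, and 0.81 without the 2 livers farthest from the median of Socs2. In every pair below, the 2 farthest livers were chosen by the first-named gene alone, unless stated. The Cish deviations ran from -2.22 to 2.35, and the widest gap between neighbouring livers was 0.73, with 13 livers below it and 10 above.

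Bcl6 ran against Cish, with r = -0.64 (permutation p 0.00075, adjusted 0.0045) and rho = -0.60 (permutation p 0.00292, adjusted 0.0175). The value was -0.62 in males and -0.69 in females, and -0.70 without the 2 livers farthest from the median of Cish. That choice kept control male 1, whose Bcl6 lay far above its group, so it does not test the weight of that liver. Control male 1, which had 615 counts of Bcl6, had the lowest Cish count of the control males, 93. LKO females 3 and 5, which had the 2 highest Cish counts of their group, had the 2 lowest Bcl6 counts, 67 and 129. Bcl6 against Socs2 gave r = -0.36 (permutation p 0.108, adjusted 0.217; rho = -0.35, permutation p 0.126, adjusted 0.239), which did not pass.

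Transcripts of the receptor gene Ghr and of the secreted products also varied together. Ghr and Igf1 had r = 0.83 (permutation p 9e-05, adjusted 0.00162) and rho = 0.79 (permutation p 0.00023, adjusted 0.00276), with 0.90 in males, 0.71 in females and 0.75 without the 2 farthest livers. Igf1 and Igfals had r = 0.79 (permutation p 0.00016, adjusted 0.00192) and rho = 0.79 (permutation p 0.00019, adjusted 0.00276), with 0.91 in males, 0.60 in females and 0.72 without the 2 farthest livers. Igf1 and Socs2 had r = 0.69 (permutation p 0.00059, adjusted 0.00432; rho = 0.64, permutation p 0.00433, adjusted 0.0223), at 0.66 without the 2 farthest livers. Ghr and Igfals had r = 0.62 (permutation p 0.00781, adjusted 0.0306; rho = 0.58, permutation p 0.0127, adjusted 0.0459), which was 0.49 without the 2 farthest livers and did not hold within both sexes, at 0.90 in males and 0.09 in females.

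The remaining pairs that passed were those of Prlr with Ghr, Igfals and Igf1, and that of Ghr with Stat5a, which was negative. Ghr and Prlr had r = 0.71 (permutation p 6e-04, adjusted 0.00432) and rho = 0.71 (permutation p 0.00161, adjusted 0.0139), with 0.79 in males, 0.49 in females and 0.67 without the 2 farthest livers. Igfals and Prlr had r = 0.65 (permutation p 0.00345, adjusted 0.0177; rho = 0.71, permutation p 0.00193, adjusted 0.0139), at 0.57 without the 2 farthest livers. Igf1 and Prlr had r = 0.58 (permutation p 0.00422, adjusted 0.019; rho = 0.60, permutation p 0.0123, adjusted 0.0459), which was 0.43 without the 2 farthest livers. Ghr ran against Stat5a, with r = -0.57 (permutation p 0.00851, adjusted 0.0306; rho = -0.57, permutation p 0.0076, adjusted 0.0342), at -0.65 in males, -0.55 in females and -0.45 without the 2 farthest livers. Ghr against Cish gave r = 0.15 (permutation p 0.535, adjusted 0.635; rho = 0.11, permutation p 0.658, adjusted 0.758). Neither receptor level nor Stat5 transcript level passed in a pair with Cish: Stat5b gave r = -0.44 (permutation p 0.0714, adjusted 0.171; rho = -0.48, permutation p 0.0457, adjusted 0.137), and Stat5a gave -0.02 (permutation p 0.913, adjusted 0.939; rho = -0.08, permutation p 0.716, adjusted 0.758).

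**Figure D3:**
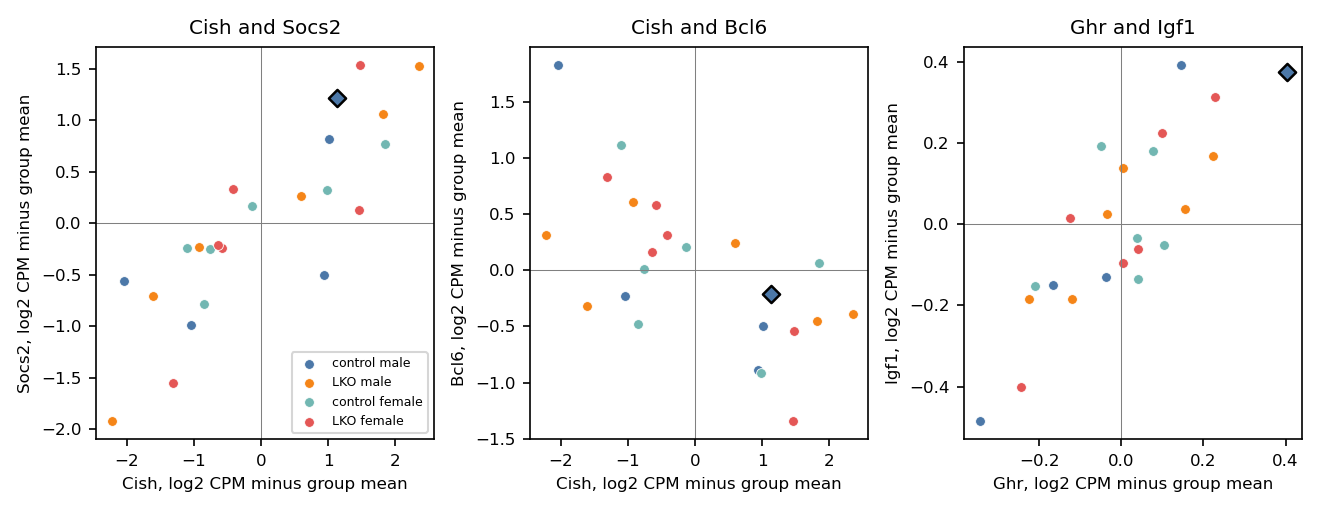
Deviations of log2 CPM from the group mean in the 23 livers, coloured by group, for Cish and Socs2, Cish and Bcl6, and Ghr and Igf1. The diamond is control male 4. Cish and Socs2 rise together (r = 0.85), as do Ghr and Igf1 (r = 0.83), and Cish and Bcl6 run in opposite directions (r = -0.64).

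Among 9523 genes with a mean of at least 5 CPM, the 3 whose deviations were most like those of Cish over the 23 livers were Arid5b (r = 0.91), Foxa2 (0.90) and Phlda1 (0.89). Those most like Socs2 were Arid5b (0.87), Cish (0.85) and Gm30262 (0.82). Arid5b, which encodes a chromatin regulator, thus headed both lists. Those most like Igf1 were Hacl1 (0.90), Acp1 (0.88) and Akr1c20 (0.88), and those most like Bcl6 were Ifi207 (0.71), Med27 (0.68) and Msr1 (0.67). Without the 2 livers farthest from the member's median the Bcl6 values were 0.56 to 0.60. These values are descriptions over livers that share library and scaling.

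The rest of the pathway was read from lists of known genes. Of 19 genes of receptor signalling and its brakes, such as Jak2, Socs1, Socs3, Ptpn11 and Irs2, 0 were called by edgeR for LKO against control in males (1 had an unadjusted p under 0.05) and 0 in females (1 under 0.05). Over all genes the shares called were 0.00724% and 1.42%, and the shares at an unadjusted p under 0.05 were 12.45% and 15.64%, which is the background for this and the next 2 lists. The median log2 fold change was 0.05 and -0.04. The lowest p belonged to Ptpn11, a phosphatase that acts at many receptors, in males (log2 fold change 0.26, edgeR adjusted p 0.313) and to Socs6 in females (-0.33, adjusted p 0.182). Of the 15 genes of the circulating IGF system 10 were tested in each sex and 0 were called by edgeR, with 0 at an unadjusted p under 0.05 in either sex and medians of -0.05 in males and -0.01 in females. Igf2r had the lowest p in males (0.20, adjusted p 0.485) and Igf1r in females (-0.31, adjusted p 0.506). Of the regulators of liver sex bias, 0 of 12 were called in males and 0 of 13 in females, with 0 and 1 at an unadjusted p under 0.05 and medians of 0.00 and -0.06. Trim24 had the lowest p in males (0.32, edgeR adjusted p 0.436) and Tox in females (0.23, adjusted p 0.308).

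Between control females and control males, where 18% of all tested genes were called, 2 of the 19 receptor signalling genes were called and both were higher in females. They were Irs2, an adaptor of the insulin and IGF1 receptors (log2 fold change 0.94, edgeR adjusted p 0.029), and Socs6 (0.37, adjusted p 0.0324). Of 10 IGF system genes, the insulin receptor gene Insr (0.49, adjusted p 0.00453) and the binding protein gene Igfbp1 (1.24, adjusted p 0.0268) were higher and Igfbp6 (-1.45, adjusted p 0.0452) was lower in females. The regulators were called higher in 7 of 13, among them the female-biased repressor gene Cux2, at 1 to 8 counts in control males and 392 to 1881 in control females, Trim24 (1.76, adjusted p 3.78e-05), the receptors Esr1 (1.82, adjusted p 0.000267) and Nr3c1 (0.41, adjusted p 0.024), and Tox (0.95, adjusted p 0.00723). Cux2 passed the filter on low counts only through the females, so it could be tested only if it differed. Some of the calls in this comparison were lost when 1 liver was left out. For Irs2 these livers were control males 1, 2, 3 and 6 and control females 1 and 6, and for Socs6 control males 1 and 3 and control females 2, 4, 5 and 6. For Igfbp1 they were control males 1, 2, 3 and 6 and control females 1, 5 and 6, for Igfbp6 control males 1 and 6 and each control female, and for Nr3c1 control males 1, 3 and 6.

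Male-biased genes known to depend on STAT5 set off control male 4. Of the 20 listed, which include members of multigene families whose reads can be shared, 18 were tested between the control sexes and 17 were called, beside 18% of all genes, all lower in females, with a median log2 fold change of -3.37. Cyp4a12a, a cytochrome P450, had 2187 to 4444 counts in control males and 7 to 33 in control females (log2 fold change -7.33, edgeR adjusted p 1.24e-09). Mup20, a major urinary protein, had 30049 to 55453 and 437 to 1631 (-5.31, adjusted p 4.43e-07). Cyp2d9 (-4.04, edgeR adjusted p 5.83e-06), Cyp2u1 (-2.69, adjusted p 1.29e-05) and Elovl3 (-5.32, adjusted p 7.74e-05) were also called. Cyp4a12b, also among the 17 called, had 1112 to 1843 counts in control males and 0 to 17 in control females. It passed the filter on low counts only through the males, so it could be tested only if it differed, and no fold is given. Without control male 4, 16 of 18 were called, beside 21.2% of all genes, and the median was -2.33. Control male 4 was the highest of the 5 control males in 16 of the 19 male-biased genes tested in males, beside 25.2% of all genes. It was the lowest in 7 of 9 female-biased genes, beside 28.01% of all genes. Its summed level of the male-biased list was 28588 CPM, where the other control males had 5975 to 8245 and LKO males 8166 to 14142 CPM.

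In the LKO comparison of males, 0 of 19 male-biased genes were called by edgeR, beside 0.00724% of all genes, and 2 were at an unadjusted p under 0.05, beside 12.45%, with 10 higher, 9 lower and a median log2 fold change of 0.04. Without control male 4 the median was 0.51, with 15 higher, 4 lower and still 0 called, beside 0.00714% of all genes. That liver was the highest control in 16 of the 19 genes, so leaving it out lowers their control mean. No conclusion about LKO is drawn from the shift. Mup20, with the lowest p, had a log2 fold change of 0.61 (edgeR adjusted p 0.313). In LKO females 2 of 17 were called, in opposite directions, beside 1.42% of all genes, 6 were at an unadjusted p under 0.05, beside 15.64%, and the median was -0.20. Hsd3b5, a male-predominant steroid-metabolizing enzyme, had 13 to 124 counts in control and 0 to 4 in LKO females (edgeR adjusted p 0.00941). It passed the filter on low counts only through the control females, so it could be tested only if it differed, and no fold is given at so few counts. Gstp1, a glutathione transferase, was higher by 0.56 (adjusted p 0.0496). The Gstp1 call was lost without any 1 of LKO females 1, 2, 3 and 6 or of control females 1 to 5, with adjusted p up to 0.115.

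Female-biased genes that male-type growth hormone represses were called in 16 of 16 tested between the control sexes, beside 18% of all genes, all higher in females, with a median log2 fold change of 5.40. Cyp2c40 had 12 to 27 counts in control males and 2611 to 4280 in control females (7.53, edgeR adjusted p 3.11e-10). Cyp2c69 had 2 to 10 and 2573 to 6942 counts, Cyp2b13 0 to 52 and 2781 to 5593, A1bg 0 to 2 and 60 to 518, and Sult3a1 0 to 2 and 38 to 480. Cyp2c69, Cyp2b13, A1bg and Sult3a1 passed the filter on low counts only through the females, so they could be tested only if they differed. In LKO males 0 of 9 were called by edgeR, beside 0.00724% of all genes, and 3 were at an unadjusted p under 0.05, beside 12.45%, with a median of 0.19, or -0.05 without control male 4. The lowest p in males belonged to Hamp2 (log2 fold change -1.44, adjusted p 0.308). In LKO females 1 of 20 was called, beside 1.42% of all genes, 11 were at an unadjusted p under 0.05, beside 15.64%, and 16 of 20 had lower values than in controls, with a median of -0.67. The summed CPM of the list was 1714 to 4495 in control females, median 3098, and 3181 to 3451 in LKO females 1 to 5. LKO female 6 stood apart at 1211, and without it the list had 1 called, 11 at an unadjusted p under 0.05, 16 lower and a median of -0.58. The called gene was Ntrk2, a neurotrophin receptor gene, at 540 to 1201 counts in control and 266 to 727 in LKO females (log2 fold change -0.99, edgeR adjusted p 0.0251). That call was lost without LKO female 3, control female 5 or control female 6, with adjusted p up to 0.0631. Igf1 and Igfals, STAT5-induced in both sexes, had the values of 0.14 and 0.12 given above in the same comparison. Neither was called (edgeR adjusted p 0.620 and 0.808), and what lies behind the lower values of the list was not tested.

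**Figure D4:**
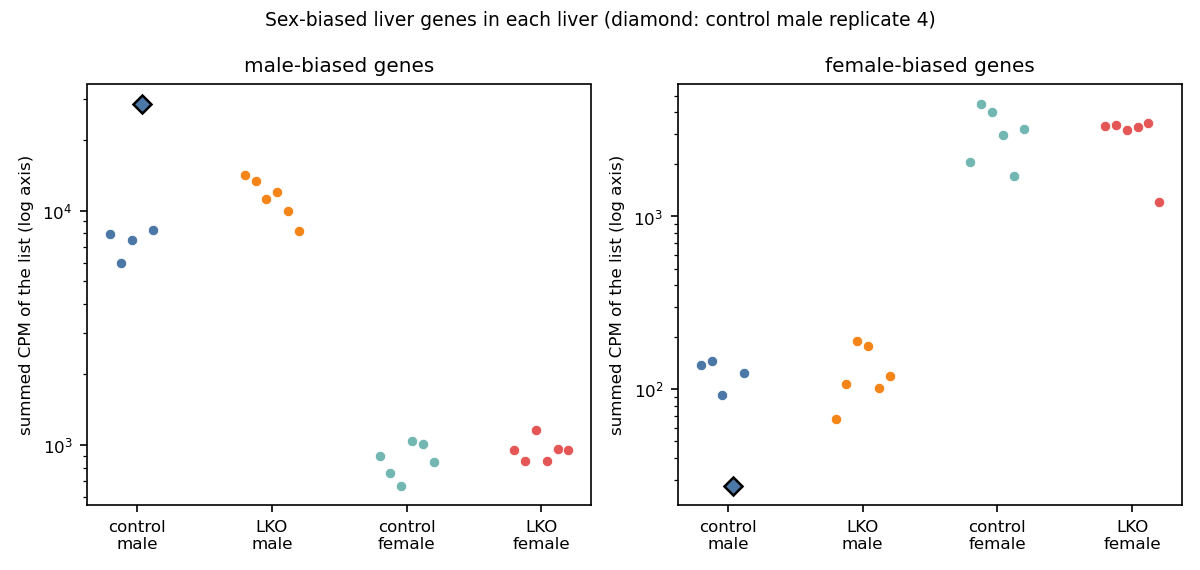
Summed CPM (log axes) of the listed genes present in each sex's table, by liver and group, with control male 4 as the diamond: 20 male-biased genes in males and 19 in females, and 19 female-biased genes in males and 20 in females. Control male 4 lies at 28588 CPM for the male-biased list, above all other livers, and at 27.7 CPM for the female-biased list, below all other livers.

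The difference of the genotype effect between females and males was not called for any of the 9 genes by edgeR, which called 0% of the 14503 genes tested, with 0 of the 9 and 1874 genes (12.92%) at an unadjusted p under 0.05. DESeq2 called 72 genes (0.532% of 13538), with 0 of the 9 among them. In the 5 lists edgeR also called 0 genes for this difference, and the lowest p in each belonged to Socs6 (females minus males -0.51, adjusted p 0.227), Igfbp6 (1.69, adjusted p 0.435), Hsd3b5 (adjusted p 0.362), Ntrk2 (-1.43, adjusted p 0.208) and Tox (0.46, adjusted p 0.461). Without control male 4 the count over all genes was 17, and 0 of the 9 and 0 genes of the lists were among them. In that fit the male-biased list had 18 of 19 genes with a lower LKO effect in females than in males and a median of -0.66, beside 11 of 19 and -0.20 with all livers. Control male 4 was the highest control male in most genes of this list, so leaving it out raises the male LKO effect. No conclusion is drawn from that shift.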

How the data were processed

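RNA of 23 mouse liver samples was sequenced after poly-T isolation, random priming and dUTP marking, per the labels' protocols. HISAT2 2.0.5 and the build mm39 are named in the submitters' processing notes, while the counter, the annotation and any use of strand in counting are not given in the sources used here, so antisense overlaps are uncertain. For each sex the authors deposited a table of raw read counts per gene, FPKM values, a normalized signal (counts over a size factor), group means, log2 fold changes and p-values with adjusted p-values. No sample column was left unmapped.

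Counts were tested with edgeR 4.0.16 in R 4.3.3 (filterByExpr, TMM, quasi-likelihood, Benjamini-Hochberg over all genes, threshold 0.05), each sex alone, all 23 livers for the interaction, and the 11 controls for sex. Standard errors are the log2 fold change over the root of the F statistic, and intervals cover 95%. The pipeline was tested on simulated data. DESeq2 1.42.0, other scalings and filters, a replicate block, a joint fit and leaving out each liver were the alternatives, and list values without control male 4 or LKO female 6 were added after seeing the data. Levels per gene length use the deposited FPKM.

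The 9 genes, the lists and the markers were chosen with earlier results of these data known. Besides the 9 genes and Cpt1a, genes are named if called within a list (at most 6 by p), else the one with the lowest p, plus the 3 most correlated with Cish, Socs2, Bcl6 and Igf1. Single values of some genes that this rule takes are not reported here. Same-numbered livers showed correlations of -0.28 to 0.42 in males and 0.037 to 0.15 in females and were not treated as pairs. None of the 55 pairs of livers within groups agreed within sampling noise.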

Additional observations from a re-analysis of the deposited data

Results flagged for a closer look

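Each of the 9 genes was examined in each of the 4 groups for a liver that stood apart from the rest of its group by Dixon's ratio at the 95% level. Of these 36 tests, 2 passed, and chance alone gives about 1 in 20. Bcl6 in control male 1 was 38.6 CPM (615 counts), where the other control males had 5.70 to 9.17 CPM, with a ratio of 0.895. Socs2 in LKO female 5 was 127.3 CPM (2246 counts), where the other LKO females had 14.8 to 55.8 CPM, with a ratio of 0.635. Control male 1 had the lowest Cish count of the control males (93) and LKO female 5 the highest of the LKO females (1057).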

How the results depend on the processing

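For LKO against control, 0 of the 9 genes were called in either sex, or for the interaction, under every alternative run, while the counts over all genes moved. In males the count was 1, and it was 2 with library size alone, 2 without a filter, 3 with at least 10 counts in every sample, 107 with DESeq2, 2 with the replicate block and 5 in the fit of all 23 samples, and 1 to 2 with 1 liver left out (2 without control male 1). In females the count of 194 became 554 with DESeq2, 334 with the replicate block and 94 in the fit of all 23 samples. With 1 female left out it was 87 to 233, and it fell by more than 1.5 times without LKO female 2, 3 or 4 or control female 1, 5 or 6. The interaction count of 0 became 72 with DESeq2, and 0 to 17 with 1 liver left out (17 without control male 4). For control females against control males the count of 2466 became 991 with the replicate block and 1766 to 2947 with 1 liver left out, and the number of the 9 genes called was 2 with library size alone and 2 with DESeq2 (Igfals added to Prlr), and 1 to 4 with 1 liver left out. The causes of these shifts were not tested.

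Some log2 fold changes near 0 changed sign. In males Ghr was 0.018 and Igf1 0.0018 with library size alone. In females Bcl6 was 0.040 with library size alone. Between control sexes Ghr was -0.0064 with RLE factors, -0.0095 with library size alone and -0.0065 with DESeq2, and Bcl6 was 0.030 with the replicate block. With 1 liver left out, the male LKO values ran from -0.12 to 0.059 for Ghr, -0.17 to 0.032 for Igf1, -0.026 to 0.12 for Stat5b, -0.61 to 0.16 for Socs2 and -0.81 to 0.045 for Cish. Those of females ran from -0.19 to 0.30 for Bcl6, -0.62 to 0.32 for Cish and -0.23 to 0.43 for Socs2. The interaction ran from -0.42 to 0.55 for Cish, -0.12 to 0.24 for Prlr and -0.011 to 0.85 for Socs2. Between control sexes the values ran from -0.48 to 0.66 for Bcl6, -0.49 to 0.32 for Cish and -0.081 to 0.11 for Ghr.

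The labels do not say whether same-numbered livers share more than a number. In females 4 of 6 pairs, and in males 1 of 5, had a correlation over 0.1, and 4 and 1 livers correlated best with their own number. The female correlations were all positive, at 0.037 to 0.15, and a pairing or batch by number in females cannot be told from the labels. Under the replicate block no gene of the 9 was called for LKO, and Irs2 (adjusted p 0.110), Socs6 (0.0962) and Igfbp6 (0.131) lost their calls between the sexes. In the fit of all 23 samples Hsd3b5 (0.140), Gstp1 (0.364) and Ntrk2 (0.113) were not called in females, and without a filter Socs6 was at 0.0588 between the sexes.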

Other observations

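Control male 4 also held levels of single male-biased genes outside the range of all other male livers. These genes were chosen after their values were seen. Mup7, a major urinary protein gene with near-identical copies, was at 11520 CPM in control male 4, 760 to 1761 CPM in the other control males and 658 to 4110 CPM in LKO males. Serpina1e, a serine protease inhibitor gene with close copies, was at 5166 CPM, against 118 to 688 and 152 to 1473 CPM. Moxd1 had 410 counts in control male 4 (33.2 CPM) and at most 0.176 CPM in the other control males and 2.11 CPM in LKO males. C8b, which encodes a chain of complement component 8, was at 289 CPM, against 46.1 to 78.7 and 37.7 to 169 CPM. In the opposite direction, the cytochrome P450 gene Cyp2a4 had 2 counts in control male 4 (0.162 CPM), with 9.41 to 31.2 CPM in the other control males and 13.03 to 114 CPM in LKO males. Cyp4a12a, also male-biased, did not follow, at 177 CPM against 201 to 268 and 159 to 270 CPM. The stellate cell markers were lowest in control male 4 for 5 of 6 genes, beside 28.01% of all genes tested in males. Cholangiocyte markers were lowest there for 3 of 6, endothelial markers for 2 of 6 and lymphocyte markers for 1 of 5. Hepatocyte markers were highest there for 3 of 6 and macrophage and Kupffer cell markers for 2 of 6, beside 25.2% of all genes. The part of cell composition in the values of control male 4 was not tested.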
